A study of Mus musculus with 2 samples.

Results

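The early preadipocyte cluster wAPC 1 is 1 of 7 clusters into which the authors divided the adipocyte precursor cells (APCs) of a white adipose culture from newborn mice. Its members were chosen by label alone, as the cells called Early Preads W1 in the authors' list of barcodes and clusters, and their UMIs were read from the white library. The part of that list used here names 1999 white precursor cells, of which 462 were wAPC 1. The other 1537 cells were 260 wAPC 2, 270 wAPC 3, 62 wAPC 4, 674 committed adipogenic precursors (wCAPs), 256 fibro-adipogenic progenitor-like cells (wFAPLs) and 15 differentiating wFAPLs.

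The study asked how much of the diversity of preadipocytes is kept when they are grown in a dish. Stromal vascular cells of the subcutaneous white and the interscapular brown depot of C57/BL6J pups of both sexes, aged P0 by the labels, were plated, grown to confluency in 4 days and lifted with trypsin, whereas the study's text gives a slightly later age and, in one place, a longer culture. Each depot gave 1 droplet library (10x Chromium 3′ v3.1) from pooled pups, with 5261 cells and 144451047 UMIs in the white library and 7009 cells and 205551320 UMIs in the brown one, and 9 cell barcodes occurred in both. No genotype or treatment other than the strain and the culture is given, and neither library has a replicate.

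Preadipocytes are fibroblast-like cells that carry PDGF receptors and can become fat cells. Commitment brings up Zfp423, Ebf factors and then Pparg, the master regulator of fat cell differentiation, whereas uncommitted or fibrotic precursors build actin stress fibres and secrete matrix and TGF-β family ligands. Stretch and a spread cell shape act on gene expression through YAP/TAZ with TEAD factors and through SRF with its actin-sensing partners, and Fosl1, which encodes the AP-1 subunit FRA-1, responds to ERK signalling.

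Levels are given in CPM, counts of UMIs of a gene summed over the cells of a cluster and scaled to a total of 1000000 UMIs in each cluster, and ratios as log2 of wAPC 1 over the comparison cells. Ranges in parentheses are exact 95% intervals that cover counting error only and not the spread between animals or cultures. Since the clusters were drawn from these same counts, a ratio describes the cluster and tests nothing, and no p-value is given. A gene is counted as higher or lower when its ratio is at least 1.5-fold and its level over all labelled white precursor cells is at least 10 CPM.

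The wAPC 1 cells were well sampled and resembled their neighbours in quality. They held 14367507 UMIs in all, with a median of 29424 UMIs per cell (lowest 11553, highest 58126) against 26570 in the other white precursors. They had a median of 6004 detected genes against 5833, a mitochondrial share of 2.94% against 3.04% and a ribosomal protein gene share of 19.2% against 19.4%. By cell cycle score 60.6% (56.0 to 65.1) of wAPC 1 were in G1, 19.7% (16.2 to 23.6) in S and 19.7% in G2/M, against 63.2%, 14.4% and 22.3% of the other precursors.

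The precursor markers were present and those of other cell types were low. The PDGF receptor genes Pdgfra and Pdgfrb stood at 78.7 and 134 CPM, against 127 and 160 CPM in the other precursors. Pdgfra was thus among the genes at least 1.5-fold lower. Dlk1, the inhibitor of fat cell differentiation that marks preadipocytes, was at 455 against 489 CPM. Against wAPC 2 to wAPC 4 alone the ratio of Dlk1 was -0.78, past the fold. No UMI was counted in wAPC 1 for Sox10 (glia), Ptprc (leukocytes), Myod1, Myog, Pax7 or Myf5 (muscle), Tie1 (endothelium), Msln, Upk3b or Lrrn4 (mesothelium), Epcam, Krt5, Krt14, Krt8 or Krt18 (epithelium), or Adipoq and Cidec (fat cells), and Krt8 had none in any white cell. A count of 0 allows a level of up to 0.209 CPM. The 5 mural markers summed to 48.2 CPM against 106 CPM, led by Myh11 at 25.6 CPM and with none of them at 0. The 5 glial markers summed to 17.1 against 26.1 CPM, led by S100b at 14.3 CPM, the 5 myeloid markers to 5.71 against 10.6 CPM, led by Csf1r at 2.78 CPM, and the 5 mesothelial markers to 13.8 against 7.88 CPM, led by Krt19 at 13.6 CPM. The endothelial sum was 2.09 against 4.12 CPM, led by Emcn at 0.974 CPM, the myogenic sum 0.139 against 0.0698 CPM, all of it Chrna1, and the fat cell sum 0.766 against 2.19 CPM, led by Car3 at 0.557 CPM. Their part in the results was not tested.

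Both genes that mark the cluster followed the label. Ptchd4 (ENSMUSG00000042256, GRCm38 chromosome 17, 42315947 to 42505077, plus strand) encodes a membrane protein with a patched domain and can be induced by p53. Its level reached 61.9 CPM (57.9 to 66.2) in wAPC 1 and 28.5 CPM in wAPC 2, and was 11.4 CPM in wCAPs, 9.34 in wFAPLs, 8.30 in wAPC 3, 8.25 in wAPC 4 and 6.29 in differentiating wFAPLs. It thus had the largest ratio of all genes above the minimum, 2.20 (2.05 to 2.36), with wAPC 2 next in order and apart from the rest.

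Fosl1 (ENSMUSG00000024912, chromosome 19, 5447547 to 5455946, plus strand) was a low gene, with 207 UMIs in the 462 cells. It measured 14.4 CPM (12.5 to 16.5) in wAPC 1, against 5.67 for wAPC 2, 5.23 for wAPC 3, 4.80 for wCAPs, 4.71 for wAPC 4, 2.09 for wFAPLs and 0 for the 15 differentiating wFAPLs. The ratio to the other precursors was 1.68 (1.39 to 1.97), and the pooled level lay under the 10 CPM minimum, so Fosl1 is not among the genes counted below.

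Neither gene marked every cell of the cluster. A Ptchd4 UMI was found in 43.3% of wAPC 1 cells, in 15.3% of the other precursors and in 0 of 20 glial cells, which allows a share of up to 15.0%. A Fosl1 UMI was found in 27.9% (23.9 to 32.3) of wAPC 1 cells and in 10.3% of the others, beside 15.0% (3.21 to 37.9) of the glial cells, whose median depth was 22607 UMIs. With every cell thinned to 10000 UMIs the Fosl1 shares were 11.9%, 4.88% and 5.00%, and those of Ptchd4 25.1% and 6.96% in wAPC 1 and the others. By cluster the unthinned Fosl1 share was 13.5% (9.56 to 18.2) in wAPC 2, 11.4% in wCAPs, 10.7% in wAPC 3, 8.06% in wAPC 4 and 4.69% (2.45 to 8.04) in wFAPLs. With 20 glial cells the glial interval covers the share of wAPC 1 as well as those of these 5 clusters, a Fosl1 UMI was seen in 0 of the 15 differentiating wFAPLs, and the part of free RNA in these shares was not tested. Both genes were seen in 63 wAPC 1 cells (13.6%, 10.6 to 17.1), Fosl1 without Ptchd4 in 66, Ptchd4 without Fosl1 in 137 and neither in 196 (42.4%), whereas 76.6% of the other precursors had neither.

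**Figure D1:**
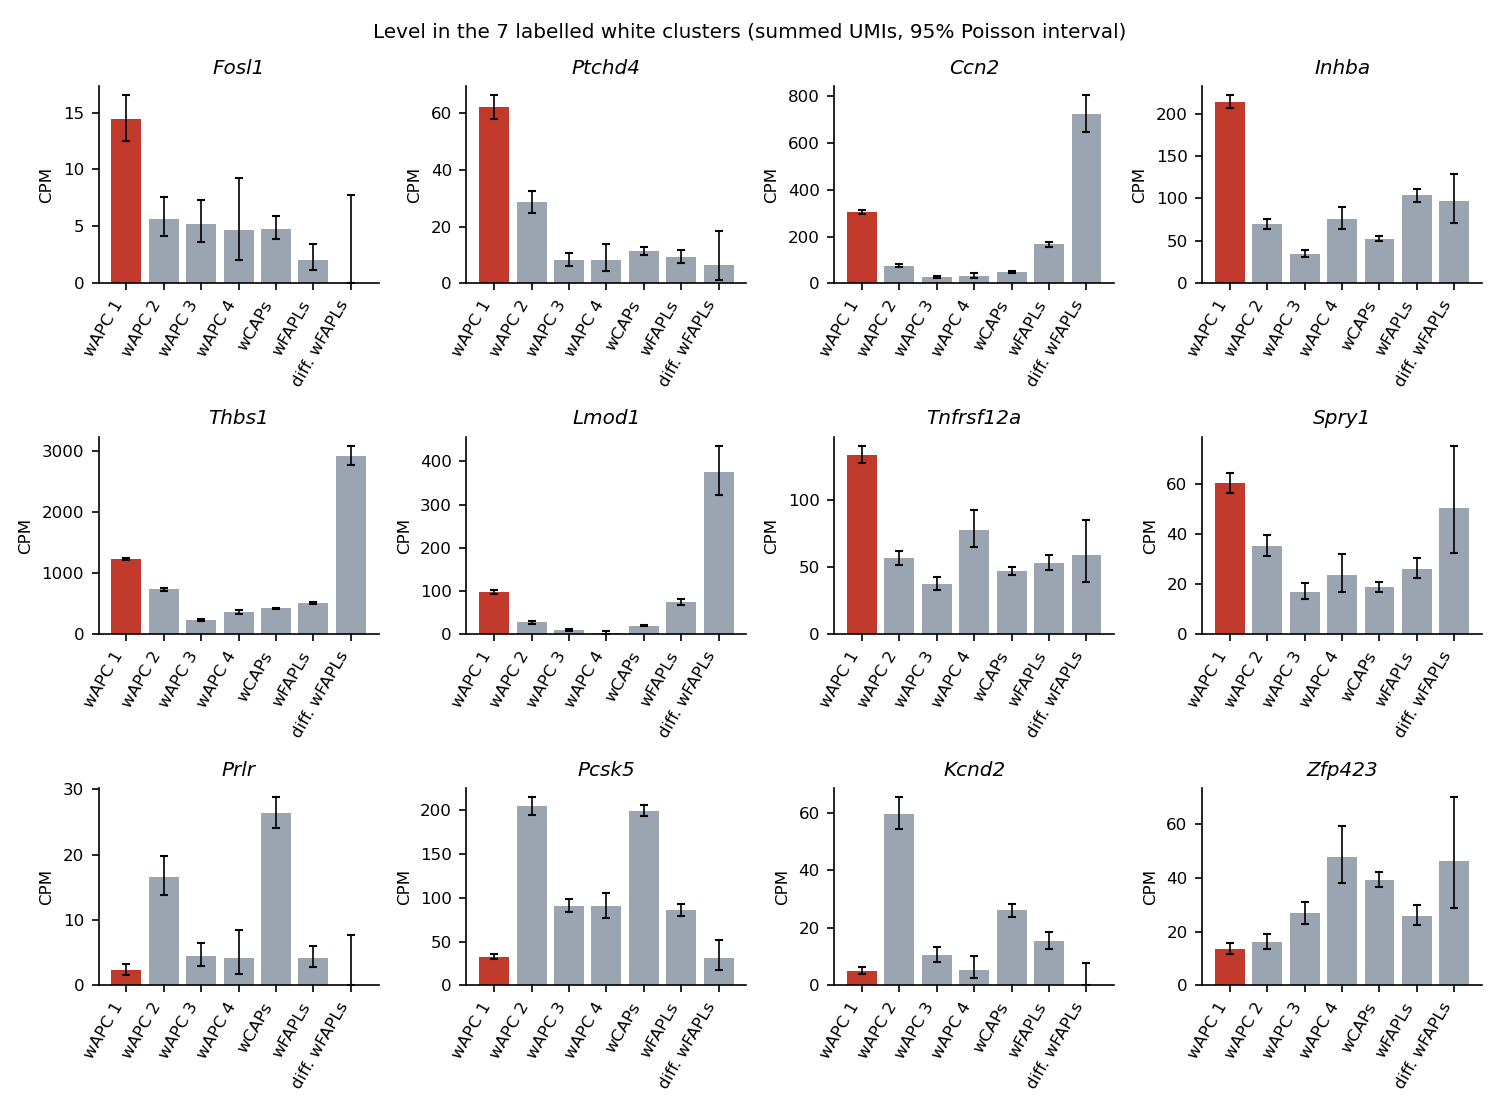
Level of 12 genes (vertical axes, CPM from 0) in the 7 labelled white clusters, with wAPC 1 in red and exact 95% Poisson intervals as whiskers. Ptchd4, Inhba, Tnfrsf12a and Fosl1 peak in wAPC 1, Ccn2, Thbs1 and Lmod1 reach their highest level in the 15 differentiating wFAPLs, and Prlr peaks in wCAPs.

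Promoters of 4 genes higher in wAPC 1 are shown because their letters match motifs of the factors named above. Sequences are those of RefSeq for GRCm38.p6, 5′ to 3′ on the gene's strand, from 250 bases before to 50 after the annotated start. The motifs searched on both strands were GGAATG for TEAD and TGANTCA for AP-1, with the SRF motif, the CArG box, searched by its usual letters. Capitals mark the match, and no printed match overlaps another. Ptchd4 has 2 annotated starts, at chr17:42315697-42315996 (plus strand, match 146 bases before the start) and chr17:42316350-42316649 (plus strand, match 8 bases before the start). Lmod1 is shown at chr1:135324563-135324862 (plus strand, match 130 bases before the start), Acta2 at chr19:34255324-34255623 (minus strand, match 146 bases before the start) and Myl9 at chr2:156775214-156775513 (plus strand, match 161 bases before the start). The first 4 sequences hold the TEAD letters and the last a CArG box. Only exact letters were searched, so a CArG box with a changed letter, in Acta2 or elsewhere, is not marked or counted.
Ptchd4, first start: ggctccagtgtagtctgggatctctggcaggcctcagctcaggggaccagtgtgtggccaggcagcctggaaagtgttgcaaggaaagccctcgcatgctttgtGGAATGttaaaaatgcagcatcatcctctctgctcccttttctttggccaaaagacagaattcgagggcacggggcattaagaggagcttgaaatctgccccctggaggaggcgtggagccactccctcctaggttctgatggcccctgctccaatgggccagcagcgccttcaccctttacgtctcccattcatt
Ptchd4, second start: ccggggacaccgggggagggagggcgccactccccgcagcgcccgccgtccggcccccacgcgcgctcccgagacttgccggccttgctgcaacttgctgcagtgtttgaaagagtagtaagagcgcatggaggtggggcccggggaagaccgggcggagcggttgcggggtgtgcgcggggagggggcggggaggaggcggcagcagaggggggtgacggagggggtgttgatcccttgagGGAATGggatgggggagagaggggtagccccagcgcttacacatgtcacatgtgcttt
Lmod1: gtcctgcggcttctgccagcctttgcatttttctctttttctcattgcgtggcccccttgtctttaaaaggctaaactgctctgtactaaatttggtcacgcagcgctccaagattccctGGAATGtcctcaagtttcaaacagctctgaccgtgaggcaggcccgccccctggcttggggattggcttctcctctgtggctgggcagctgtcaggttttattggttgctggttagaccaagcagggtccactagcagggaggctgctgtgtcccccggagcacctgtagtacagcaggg
Acta2: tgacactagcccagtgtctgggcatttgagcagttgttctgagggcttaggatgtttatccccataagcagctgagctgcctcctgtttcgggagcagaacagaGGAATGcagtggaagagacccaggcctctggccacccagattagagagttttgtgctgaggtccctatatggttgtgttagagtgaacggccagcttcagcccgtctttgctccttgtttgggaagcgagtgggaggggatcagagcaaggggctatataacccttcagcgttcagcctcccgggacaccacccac
Myl9: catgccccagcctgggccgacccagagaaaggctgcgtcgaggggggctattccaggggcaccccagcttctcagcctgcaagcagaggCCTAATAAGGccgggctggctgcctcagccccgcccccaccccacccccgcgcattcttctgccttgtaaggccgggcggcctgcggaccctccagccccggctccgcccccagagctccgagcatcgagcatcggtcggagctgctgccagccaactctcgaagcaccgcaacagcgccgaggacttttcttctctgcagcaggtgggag

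These letters are common, so their share in all promoters is the measure to read them against. The TEAD letters occurred in 14.7% of all 32851 mouse promoters in the RefSeq table, in 11.6% of the 9105 promoters of genes above the level minimum, in 20.3% of the 138 promoters found for the genes higher in wAPC 1 (96 of these genes matched) and in 14.8% of the 365 promoters of the lower genes (266 matched). AP-1 letters occurred in 7.81%, 4.43%, 8.70% and 3.56%, and the CArG box in 1.63%, 1.30%, 7.25% and 1.37% of the same sets. The 10 higher genes with a CArG box, named after their values were seen, were Myl9, Cnn2, Actg1, Vcl, Srf, Fermt2, Dmd, Schip1, Lurap1l and Pdgfc. Srf encodes the factor that binds the box, Actg1 a cytoplasmic actin and Vcl vinculin, which links actin to adhesions. A match is a description of the letters and no evidence of binding.

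The genes with the largest ratios in wAPC 1 over the other precursors were Ptchd4, Ccn2 and Inhba. Of 8838 genes above the minimum, 138 (1.56%) were at least 1.5-fold higher in wAPC 1 and 373 (4.22%) at least 1.5-fold lower, and the median log2 ratio of all of them was -0.04. Among secreted products, Ccn2, the connective tissue growth factor and a classic YAP/TAZ target, Inhba, the activin A subunit, and Thbs1, thrombospondin-1, were all more than 2-fold higher. The lower genes were led by Prlr, the prolactin receptor, and Kcnd2, a potassium channel.

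Ccn2 (ENSMUSG00000019997, chromosome 10, 24595442 to 24598683) measured 305 CPM against 76.7 CPM in the other precursors, a log2 ratio of 1.99 (1.92 to 2.06). By cluster it was 723 CPM in differentiating wFAPLs, 166 in wFAPLs, 75.2 in wAPC 2, 48.7 in wCAPs, 32.4 in wAPC 4 and 27.1 in wAPC 3. So wAPC 1 ranked above every cluster but the smallest. Among single wAPC 1 cells Ccn2 varied widely, with quartiles of 30.5, 119 and 377 CPM, and a UMI was seen in 77.7% of them against 43.6% of the others and 10.0% of the glial cells.

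Inhba (ENSMUSG00000041324, chromosome 13, 16011851 to 16031621) reached 214 CPM in wAPC 1, followed by 103 CPM in wFAPLs, 96.5 in differentiating wFAPLs, 76.0 in wAPC 4, 69.4 in wAPC 2, 52.5 in wCAPs and 34.9 in wAPC 3. The ratio to all others was 1.77 (1.69 to 1.84), and wAPC 1 was highest of the 7 clusters. A UMI was seen in 88.1% of wAPC 1 cells, 54.5% of the others and 10.0% of glia, so most wAPC 1 cells held the transcript. Fst, the activin antagonist follistatin, stood at 121 against 93.1 CPM, a ratio of 0.37, under the fold.

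Further leading genes encoded proteins at the cell surface or outside the cell. Plaur, the urokinase receptor, was 24.4 against 10.7 CPM (1.18). Thbs1, which activates latent TGF-β, was 1237 against 492 CPM (1.33), and Metrnl, a secreted meteorin-like factor, was 114 against 50.0 CPM (1.19).

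Lmod1 (ENSMUSG00000048096, chromosome 1, 135324807 to 135368065), the smooth muscle actin nucleator leiomodin-1, measured 97.1 CPM, under 375 CPM in differentiating wFAPLs and over 74.3 in wFAPLs, 27.6 in wAPC 2, 20.2 in wCAPs, 10.6 in wAPC 3 and 3.54 in wAPC 4, with a ratio of 1.58 (1.48 to 1.69). Pkp2, the desmosomal plakophilin-2, was 35.9 against 15.7 CPM (1.20). Both structural genes were thus more than 2-fold higher, although Lmod1 was not highest in wAPC 1.

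Receptors and regulators were also among the 15. Tnfrsf12a, the receptor for the cytokine TWEAK, was 134 against 49.7 CPM (1.43), and Ptprz1, a receptor phosphatase, 44.3 against 14.7 CPM (1.59, and -0.16 with the 6 other clusters weighted equally). Tm4sf1, a small membrane protein of filopodia and adhesions, was 235 against 97.6 CPM (1.27). Spry1, a feedback inhibitor of receptor tyrosine kinases, was 60.1 against 23.3 CPM (1.37), and Adarb1, an RNA-editing enzyme, 38.4 against 15.7 CPM (1.29). Ptprz1 is also a glial gene: it was seen in 85.0% of the 20 glial cells, 38.1% of wAPC 1, 39.2% of wAPC 2 and 18.3% of all other precursors.

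**Figure D2:**
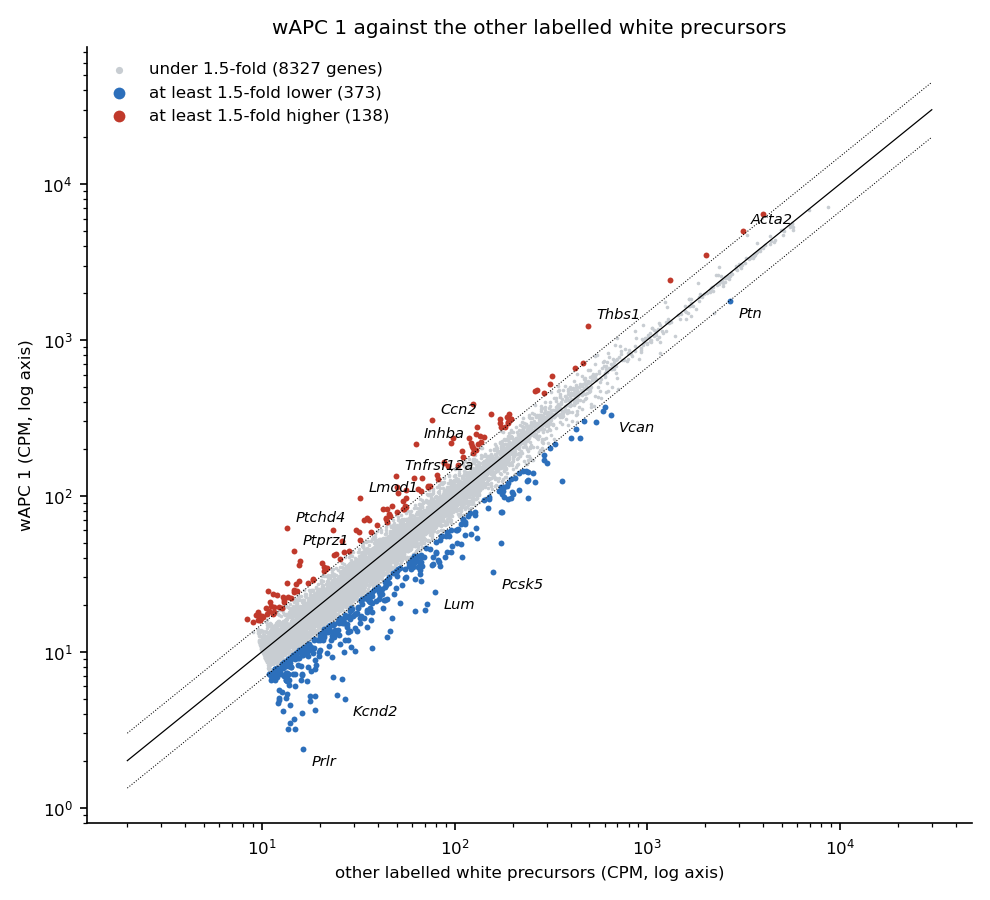
Level of 8838 genes in wAPC 1 (vertical log axis, CPM) against the other labelled white precursors (horizontal log axis, CPM), each point a gene, with the 1.5-fold lines dotted. Red points are the 138 higher and blue points the 373 lower genes, with Ptchd4, Ccn2 and Inhba farthest above and Prlr and Kcnd2 farthest below the diagonal.

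Only 8 genes were highest in wAPC 1 and at least 1.5-fold above each of the 6 other clusters. Ptchd4 exceeded the next cluster, wAPC 2, by a log2 ratio of 1.12, and Inhba the next, wFAPLs, by 1.05. Tfrc, the transferrin receptor, was 27.8 CPM against 15.3 in wAPC 2 (0.86), Tnfrsf12a exceeded wAPC 4 at 77.8 CPM by 0.78 and Metrnl exceeded wAPC 2 at 69.3 CPM by 0.72. Plk2, a kinase of the p53 response, was 166 against 105 CPM in wAPC 4 (0.65), and the unnamed transcript C530008M17Rik 51.2 against 33.5 CPM in wAPC 2 (0.61). Leaving out the 15 differentiating wFAPLs raised the number of such genes to 18. Of the 138 higher genes, 47 were highest in wAPC 1, beside 622 of all 8838 genes, and 74 in the differentiating wFAPLs, and without that small cluster 109 were highest in wAPC 1.

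The 15 lowest genes were of several kinds. Prlr (ENSMUSG00000005268, chromosome 15, 10177238 to 10349180) measured 2.37 CPM, against 26.4 CPM in wCAPs, 16.6 in wAPC 2, 4.46 in wAPC 3, 4.18 in wFAPLs, 4.12 in wAPC 4 and 0 in differentiating wFAPLs, with a ratio of -2.79 (-3.34 to -2.30). Most of that distance was to wCAPs and wAPC 2. Kcnd2, a voltage-gated potassium channel, was 4.94 against 26.9 CPM (-2.44), Abcc9, a subunit of ATP-sensitive potassium channels and a mural marker, 4.25 against 18.8 CPM (-2.15), and Pcsk5, a protease that activates secreted proproteins, 32.4 against 159 CPM (-2.29). Igfbp5, which binds insulin-like growth factors, was 5.29 against 24.7 CPM (-2.22), and Angpt1, the angiopoietin that activates the endothelial receptor TIE2, 3.20 against 14.8 CPM (-2.21). These 6 genes were all more than 4-fold lower. The rest of the 15 lowest were Fmo1, a flavin monooxygenase (-2.10), Fgf14, which modulates sodium channels (3.48 against 13.9 CPM), Shroom3, an actin-binding shape regulator (-1.99), Agtr2, the angiotensin II type 2 receptor (-1.99), the ephrin receptor gene Epha7 (-1.97), the synuclein-binding Sncaip (-1.92), Itgbl1, an integrin β-like secreted protein (-1.89), the serpin Serpinb1a (-1.85) and the netrin receptor gene Unc5c (-1.84).

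Of the 373 lower genes 215 were lowest in wAPC 1 among the 6 clusters left without the 15 differentiating wFAPLs. Among all 7 clusters 80 of them were lowest in wAPC 1, beside 589 of all 8838 genes, and 220 in the differentiating wFAPLs. The cluster where they were highest was wCAPs for 103, wAPC 2 for 83, wFAPLs for 71, differentiating wFAPLs for 50, wAPC 4 for 46 and wAPC 3 for 20. The lower genes were also long: their median span was 99.4 kb, against 28.7 kb for all genes above the minimum and 36.1 kb for the higher genes, and 49.6% of them spanned at least 100 kb against 16.4% of all and 29.7% of the higher genes. Among the 7385 genes under 100 kb, 97 (1.31%) were higher and 188 (2.55%) lower. Since intronic reads were counted by default, span could bear on a UMI count, and its part was not tested.

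Smooth muscle contractile genes had the highest median ratio of the 31 lists in wAPC 1. Of 13 above the minimum, 6 were higher and 1 lower, beside 1.56% of all genes higher and 4.22% lower, with a median ratio of 0.54 against -0.04 for all genes, and the 14 genes together summed to 14247 against 9303 CPM. The higher members were Lmod1, Cnn1 (calponin-1, 131 against 61.6 CPM, 1.09), Tagln (SM22α, 2410 against 1307 CPM, 0.88), Myl9 (a myosin light chain, 473 against 262 CPM, 0.85), Cnn2 (calponin-2, 481 against 267 CPM, 0.85) and Acta2 (smooth muscle actin, 5035 against 3133 CPM, 0.68). The lower one was Myh11, the smooth muscle myosin heavy chain, at 25.6 against 49.6 CPM (-0.95), and without differentiating wFAPLs its ratio was 0.23. Without those 15 cells 9 of 13 were higher and none lower (median 0.64), and with the 6 other clusters weighted equally, which raises the weight of those 15 cells, 0 were higher and 3 lower (median -0.35), with Acta2 at -0.40, Myl9 at -0.39, Cnn1 at -0.14 and Tagln at -0.045. The list is thus high in wAPC 1 against the bulk of white precursors and not against differentiating wFAPLs. No count of the list against wFAPLs alone is given.

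A few targets each of ERK, YAP/TAZ and p53 were past the fold, to be read beside 1.56% of all genes higher and 4.22% lower. Of 8 ERK targets and feedback genes 3 were higher and none lower, with a median of 0.40: Spry1, Phlda1 (23.2 against 11.9 CPM, 0.96) and Myc (32.8 against 21.1 CPM, 0.64), whereas Egr1, an immediate early factor, was at -0.20. In G1 cells alone only 1 of the 8 was higher. Of 19 YAP/TAZ targets Ccn2 and Crim1, a membrane BMP binder (127 against 81.8 CPM, 0.64), were higher and none lower, 13 were above 0 and the median was 0.26, with the matricellular gene Ccn1 at 318 against 226 CPM (0.49). With equal weights the counts were 1 higher and 3 lower and the median -0.01, with Crim1 at -0.88. Of 20 p53 targets Ptchd4, Plk2 (0.91) and Gdf15, a stress cytokine (24.2 against 14.7 CPM, 0.71), were higher and Trp53inp1 (-0.82) lower, and the median was 0.02. The cell cycle inhibitor Cdkn1a was at 120 against 107 CPM (0.16) and Mdm2, the ligase that degrades p53, at -0.02. Against wAPC 2 to wAPC 4 alone, 2.56% of all genes were higher and 3.47% lower. There 4 of the 20 p53 targets were higher and none lower, with Gdf15 at 1.68, Plk2 at 1.02 and Cdkn1a at 0.70. Gdf15 reached the minimum in that comparison only with the wAPC 1 cells included.

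Among other AP-1 genes Maff was past the fold, as was Fosl1, which lay under the level minimum. Of 9 AP-1 factors above the minimum Maff was the only one higher (17.2 against 9.35 CPM, 0.88), and none was lower. Maff reached the minimum of 10 CPM only with the wAPC 1 cells included, so its count rests on the cluster where it is high. Fosb, at 137 against 205 CPM (-0.58), fell just short of the fold, and Fos was at 202 against 284 CPM (-0.49). The median of the 9 was -0.07. The 20 genes of the dissociation response, which enzyme treatment can induce, had a median of 0.03, none higher and 1 lower (Socs3), near the 1.56% and 4.22% of all genes.

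Ligand and receptor genes of wAPC 1 went both ways, beside 1.56% of all genes higher and 4.22% lower. Among 24 TGF-β, activin and BMP genes Inhba was higher, and the BMP antagonist Chrdl1 (-1.41), the receptors Tgfbr3 (141 against 256 CPM, -0.86) and Tgfbr2 (46.5 against 71.4 CPM, -0.62) and the matrix protein Tgfbi (-0.77) were lower. Of 8 chemokines and cytokines the monocyte attractants Ccl2 (311 against 172 CPM, 0.85) and Ccl7 (0.60) and the macrophage growth factor Csf1 (275 against 175 CPM, 0.65) were higher, and the neutrophil attractant Cxcl5 (16.4 against 47.3 CPM, -1.53) and Cxcl12 (171 against 290 CPM, -0.76) lower. In G1 cells alone 1 of the 8 was higher and 2 lower (median -0.16). Of 17 growth factor ligands 3 were higher, among them the neurotrophin gene Bdnf (0.84) and the PDGF receptor ligand gene Pdgfc (82.9 against 53.9 CPM, 0.62), and Fgf10, which supports fat cell formation (6.89 against 23.3 CPM, -1.76), Kitl (-0.78) and pleiotrophin, Ptn (-0.61), were lower. With equal cluster weights 1 of the 17 was higher and 1 lower. The medians of these lists were -0.09, 0.00 and -0.12. Ligand and receptor genes therefore showed no shared direction within a list.

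Lower members of the Wnt, IGF and guidance lists are read against 4.22% of all genes lower and 1.56% higher, so that no higher member in lists of this size is no result. Of 8 Wnt pathway genes 4 were lower, the R-spondins Rspo2 (-1.18) and Rspo3 (38.5 against 82.3 CPM, -1.10), Dkk3 (-1.19) and Sfrp2 (374 against 606 CPM, -0.70), none was higher and the median was -0.54. Of 25 semaphorins, ephrins and other guidance genes 11 were lower and none higher, with a median of -0.46, among them Epha7, Unc5c, Robo2 (-1.15), Sema3a (-1.08) and Plxna2 (-0.99). Of 13 IGF genes Igfbp5 and Igfbp4 (79.1 against 176 CPM, -1.15) were lower and none higher (median -0.31).

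Of 24 adipogenic and mesenchymal regulators, 7 were lower and none higher, beside 4.22% of all genes lower and 1.56% higher, with a median of -0.31. At that share no higher member among 24 is no result. The lower ones were Zfp423, a commitment factor (13.6 against 31.3 CPM, -1.20), Meox2 (-1.06), Ebf2 (47.7 against 97.1 CPM, -1.03), Nrip1 (95.3 against 188 CPM, -0.98), Ebf3 (-0.69), Sox9 (-0.66) and Zfp521 (-0.63). Pparg was 39.3 against 57.0 CPM (-0.54), under the fold, and against wAPC 2 to wAPC 4 alone its ratio was 0.18. By phase it was past the fold in G1 (-0.78) and S cells (-0.82) and turned to 0.30 in G2/M cells. Of 15 lipid storage genes the fatty acid binder Fabp5 was higher (711 against 465 CPM, 0.61), Apoe (35.3 against 83.8 CPM, -1.25) and the lipase inhibitor G0s2 (-0.73) were lower, and Fabp4, a fatty acid binder of fat cells, was 73.3 against 66.7 CPM (0.14). Against wAPC 2 to wAPC 4 alone the ratio of Fabp4 was 1.36. With equal cluster weights that of Fabp5 turned to -0.049. The markers of adult progenitors gave 2 higher, Anxa3 and Creb5 (-0.26 with equal weights), and 3 lower of 7 interstitial ones (median -0.31), and 0 higher and 4 lower of 15 committed and regulatory ones (median -0.23). With equal weights 0 of the 7 were higher and 2 lower. Of the 15, 8 were lower with equal cluster weights (median -0.91), where 89 of all 8838 genes were higher and 316 lower. Against wAPC 2 to wAPC 4, where 2.56% of all genes were higher and 3.47% lower, 3 of 14 were higher and 3 lower. Of those higher, Cxcl14 reached the minimum there only with the wAPC 1 cells included. Dpp4, the usual interstitial marker, was at 0.278 CPM.

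Matrix genes included both higher and lower members, beside 1.56% of all genes higher and 4.22% lower. Of 17 fibrillar and beaded collagens Col8a1 was higher (58.7 against 31.8 CPM, 0.89) and Col14a1 (40.4 against 109 CPM, -1.44) and Col15a1 (-0.83) lower, with a median of -0.17. The ratio of Col8a1 turned to -1.60 with equal cluster weights and to -0.35 in cells with Y-linked UMIs only. With equal weights 0 collagens were higher and 5 lower, 5 of the 11 basement membrane genes were lower, 0 integrins were higher and 2 lower (median -0.40), and no matrix protease gene was past the fold. At those weights 89 of all 8838 genes were higher and 316 lower. The small leucine-rich proteoglycans lumican (Lum, 24.2 against 79.4 CPM, -1.72) and decorin (Dcn, 298 against 544 CPM, -0.87) were lower and none of the 8 higher (median -0.44). Of 12 hyaluronan and provisional matrix genes Thbs1, the hyaluronan receptor Cd44 (162 against 88.2 CPM, 0.88) and tenascin-C (Tnc, 0.63) were higher, and versican (Vcan, 329 against 648 CPM, -0.98) and Tnfaip6 (-0.59) lower. Among 8 integrins Itga5, the fibronectin receptor subunit, was higher (85.2 against 55.9 CPM, 0.61). The 11 basement membrane genes had 1 lower (Lama2, median -0.23), the 20 elastic fibre genes 1 lower (Ltbp4, median -0.09), the 16 matrix proteases and inhibitors 2 lower (Mmp2 and Mmp16, median -0.06) and the 10 plasminogen activators and serpins 2 higher (Plaur among them) and 2 lower (Serpinb1a, Serping1, median -0.02).

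Complement and cell cycle genes were among the remaining lists, whose counts stand beside 1.56% of all genes higher and 4.22% lower. The architectural factor Hmga2 (336 against 154 CPM, 1.13) and cyclin D1 (Ccnd1, 70.3 against 36.0 CPM, 0.97) were higher and the inhibitor Cdkn1c (123 against 263 CPM, -1.09) lower among 14 cell cycle inhibitors and senescence markers (median 0.09). Of 5 complement genes C1s1, C1ra and Serping1 were lower (median -0.87), of 8 retinoid genes Aldh1a1 was lower (median -0.31) and of 20 positional factors Hoxd8 and Tbx18 were lower (median -0.28). Of 20 glycolysis and hypoxia genes Adm, adrenomedullin, was higher (-0.030 in cells with Y-linked UMIs only, list median 0.24), and none of the 22 cholesterol (median 0.11) or 18 stress response genes (median 0.14) was past the fold. In lists of this size 0 or 1 member past the fold is near the share of all genes and no result.

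**Figure D3:**
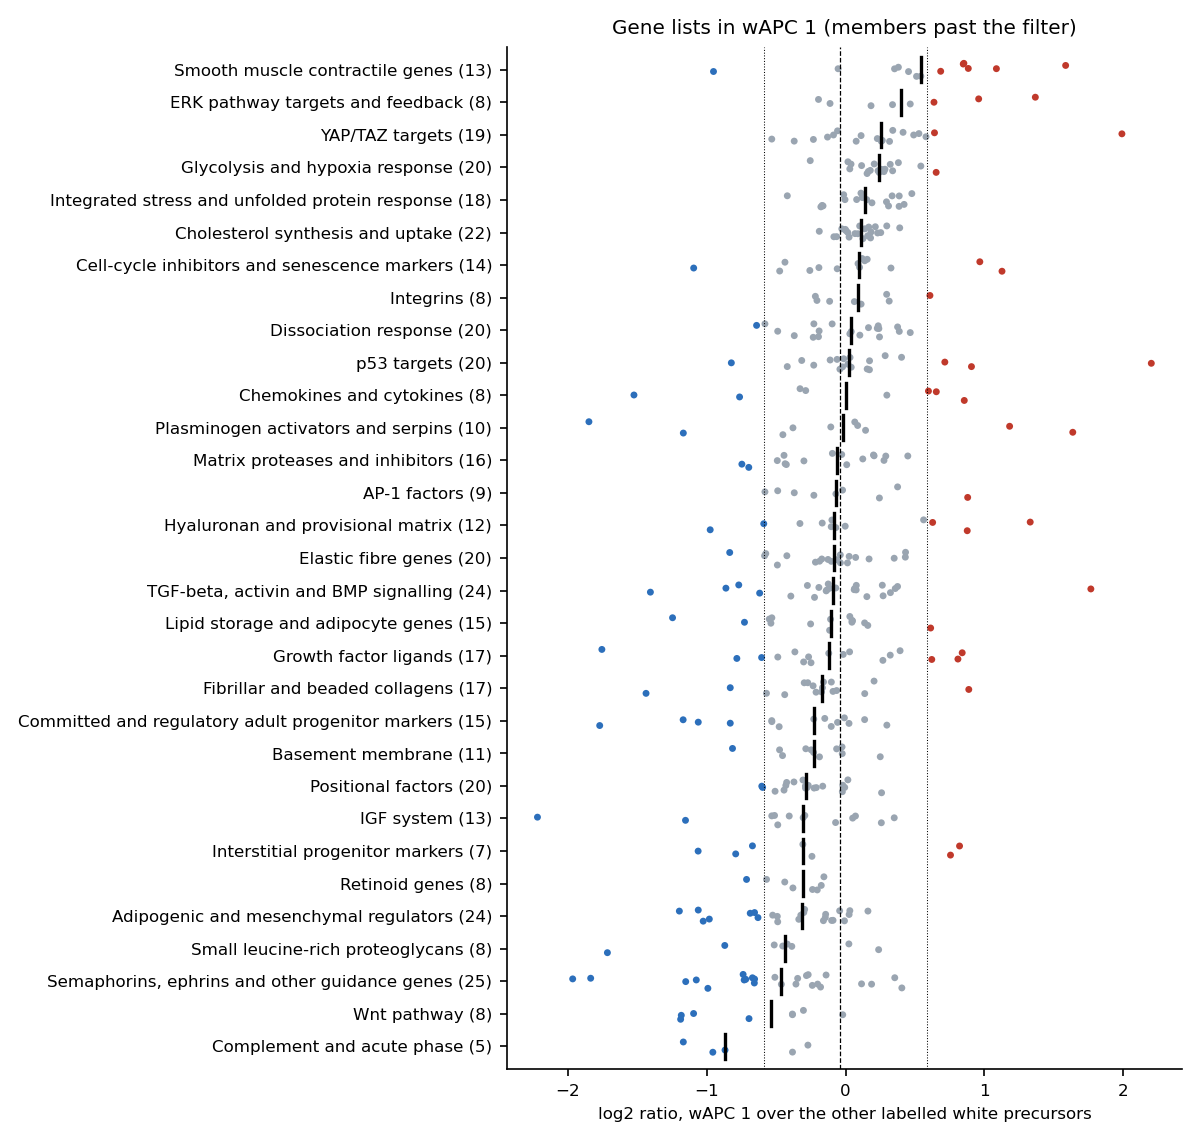
Log2 ratio of wAPC 1 over the other labelled white precursors (horizontal axis) for the members of 31 gene lists above 10 CPM (vertical axis, number of members in parentheses), each point a gene, red at least 1.5-fold higher and blue at least 1.5-fold lower. Black bars are list medians, from 0.54 for smooth muscle contractile genes to -0.87 for complement, beside the dashed median of all genes at -0.04.

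Set against the other early preadipocyte clusters alone, wAPC 1 had most of the contractile list past the fold. Of 8762 genes above the minimum, 224 (2.56%) were higher than in wAPC 2, wAPC 3 and wAPC 4 together and 304 (3.47%) lower. Among the largest ratios were those of Ccn2 (305 against 51.1 CPM, 2.58), Myh11 (25.6 against 4.76 CPM, 2.43), Lmod1 (97.1 against 18.1 CPM, 2.42) and Ppp1r14a, an inhibitor of myosin phosphatase (21.8 against 5.58 CPM, 1.97). Myh11 and Ppp1r14a lay under the 10 CPM minimum in wAPC 2 to wAPC 4 and passed it only with wAPC 1 included. Their place here thus rests on the cluster where they are high. The contractile list had 11 of 13 genes higher, Myh11 among them, and none lower, with a median of 0.93 against -0.03 for all genes. The lowest were Kcnd2 (-2.78), Pcsk5 (-2.17), Agtr2 (-2.07), Pde7b, a cyclic AMP phosphodiesterase (-2.06), and Gas7, an actin regulator (-2.01).

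Cluster by cluster, among the 5 larger clusters, the number of genes past the fold was smallest against wAPC 2 and largest against wAPC 4. The 15 differentiating wFAPLs were not counted in this way. Against wAPC 2, 201 genes (2.30%) were higher and 471 (5.39%) lower, and against wCAPs 261 (2.96%) and 512 (5.82%). Against wFAPLs the counts were 275 (3.14%) and 464 (5.30%), against wAPC 3, with most cells in G2/M, 515 (5.93%) and 251 (2.89%), and against the 62 cells of wAPC 4 675 (7.77%) and 567 (6.53%). Across genes of at least 10 CPM in either cluster, Spearman's rho of the profile was 0.967 with wAPC 2, 0.966 with wCAPs, 0.964 with wAPC 3, 0.959 with wFAPLs, 0.943 with wAPC 4 and 0.805 with the 15 differentiating wFAPLs. These are correlations across genes of clusters of 1 library, and the first 3 are too close to be ranked.

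The wAPC 1 cells varied among themselves in how much of the leading genes they held. The sums, neighbours and votes that follow rest on the counts that drew the cluster, so they describe its spread and do not test that it is separate. The 15 genes with the largest ratios made up a median of 0.265% of the UMIs of a wAPC 1 cell (quartiles 0.142 and 0.395, lowest 0.0127, highest 1.15) and of 0.0752% in the other precursors, of which 7.61% lay above the wAPC 1 median. Among other clusters the medians were 0.115% in wAPC 2, 0.112% in wFAPLs and 0.632% in differentiating wFAPLs, and 16.0% of wFAPLs and 86.7% of differentiating wFAPLs lay above the wAPC 1 median. The 15 lowest genes made up 0.00763% in wAPC 1 and 0.0372% in the others, with wAPC 4 next lowest at 0.0139%. Of the 15 nearest labelled neighbours of a wAPC 1 cell, 79.5% on average were wAPC 1, which made up 22.7% of all labelled white cells, glial and myeloid cells included, 9.26% were wCAPs, 4.85% wAPC 2, 4.14% wAPC 3 and 1.63% wFAPLs. A vote of the neighbours returned 429 of 462 cells to wAPC 1 and gave 17 to wCAPs, 9 to wAPC 2, 6 to wAPC 3 and 1 to wFAPLs.

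**Figure D4:**
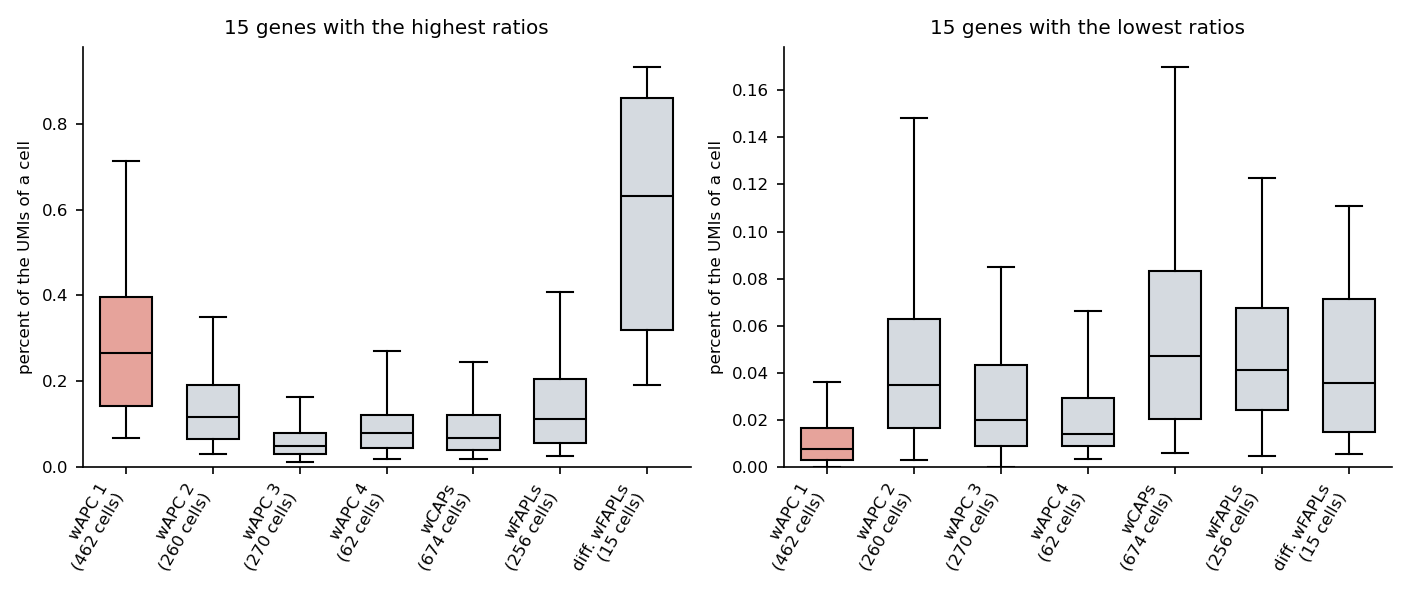
Percent of the UMIs of a cell in the 15 genes with the highest ratios (left) and the 15 with the lowest (right) in the 7 white clusters (horizontal axes, cells in parentheses), with boxes at the quartiles, a line at the median and whiskers at the 5th and 95th percentiles. The wAPC 1 median is 0.265% on the left, below that of differentiating wFAPLs at 0.632%, and 0.00763% on the right, the lowest of the 7 medians.

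The leading genes were higher in wAPC 1 within each cell cycle phase. The ratios of the leading genes named above ran from 1.12 for Tm4sf1 to 2.41 for Ptchd4 in G1 cells, from 0.87 for Plaur to 1.53 for Ccn2 in S cells and from 1.11 for Pkp2 to 2.68 for Ptchd4 in G2/M cells. Fosl1 had ratios of 1.36, 1.76 and 2.31 in the same order. Since the genes were chosen on all these cells together, the shared direction is a description.

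Cells of both sexes were in the pool, and sex could be called from Xist and 4 Y-linked genes, a split chosen after seeing the data. Of the wAPC 1 cells 356 held Xist UMIs only and 94 Y-linked UMIs only, so that the Y-linked cells were 20.9% (17.2 to 24.9) of the called cells, against 20.4% of the other precursors. Ptchd4 had a ratio of 2.04 (1.86 to 2.22) in Xist cells and 2.71 (2.38 to 3.05) in Y-linked cells, and Fosl1 one of 1.87 (1.54 to 2.20) and 1.09 (0.37 to 1.79). For Inhba the ratios were 1.73 and 1.74. All 15 leading genes were past the fold in both sets of cells, with Tm4sf1 lowest in the Y-linked cells at 0.80. These genes were chosen on the cells of both sets together, so their shared direction is a description. How many pups of each sex were pooled is not given in the sources used here, so sex and animal cannot be told apart.

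In the brown library, whose cells took no part in drawing the white clusters, the genes of wAPC 1 were high in bAPC 4. The study describes 1 pool of pups from which both depots were taken, so the libraries may share animals. Each brown cluster was set against the other labelled brown precursors in the same way, and 247 of 8587 genes above the minimum in both libraries (2.88%) were higher and 307 (3.58%) lower in bAPC 4. Of the 130 wAPC 1 higher genes that could be compared, 83 were also higher in bAPC 4, among them Ptprz1, by which the study names that cluster. The 83 are 63.8% of the white list and 33.6% of the brown one, and 0 of the 130 were lower. The median ratio of the 130 genes in bAPC 4 was 0.71. In each of the other 6 brown clusters 2 to 7 of the 130 genes (1.54% to 5.38%) were higher, with medians from -0.20 to 0.02. Those clusters had 175 (2.04%, bAPC 1), 14 (0.163%, bAPC 2), 114 (1.33%, bAPC 3), 187 (2.18%, bAPC 5), 277 (3.23%, bCAPs) and 241 (2.81%, bFAPLs) higher genes of their own. The 14 of bAPC 2 held 6 of the 130 genes, which is 42.9% of the bAPC 2 list and 4.62% of the white one. Another 19 of the 130 were lower in bAPC 2, and the median of the 130 there was -0.09.

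The leading genes of wAPC 1 were also high in bAPC 4, except Tm4sf1 (0.42) and, below the level minimum, Fosl1. Ptchd4 was 98.7 CPM there (ratio 2.18), Ccn2 505 CPM (2.08), Inhba 193 CPM (1.42), Lmod1 144 CPM (1.52) and Ptprz1 83.5 CPM (2.79). The study names bAPC 4 by Creb5 and Ptprz1, both higher in wAPC 1, so their levels there follow from that label. Of the 15 leading genes 14, Ptprz1 among them, were highest in bAPC 4 among the 7 brown clusters. Tm4sf1 was highest in bAPC 3. Fosl1, the other marker of wAPC 1, was not set apart in bAPC 4: it was 9.87 CPM (7.23 to 13.2) there, with a ratio of 0.33. Its largest value was 11.1 CPM (9.28 to 13.1) in bAPC 2, and these intervals overlap. Of the contractile list, 7 of the 13 genes were higher in bAPC 4 and none lower (median 0.60). Of the 18 YAP/TAZ genes above the minimum in both libraries 7 were higher and none lower (median 0.40). These counts stand beside 2.88% of all genes higher and 3.58% lower in bAPC 4.

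Genes lower in wAPC 1 were lower in several brown clusters. Of 320 that could be compared, 106 (33.1%) were lower in bAPC 4, which is 34.5% of its lower genes. In bAPC 2 the number was 194 (60.6%), but bAPC 2 had 1180 lower genes in all (13.7% of those tested), of which these were 16.4%. In bAPC 3, with 4.94% of all genes lower, it was 69, and in bAPC 5 (3.16%), bFAPLs (2.55%), bCAPs (2.35%) and bAPC 1 (1.25%) it was 60, 47, 20 and 19. Across the 8587 genes the ratios of wAPC 1 had a Pearson correlation of 0.50 with those of bAPC 4, 0.41 with bAPC 2, -0.27 with bCAPs and -0.30 with bAPC 1. Genes are not independent, and the ratios of a library share their comparison cells, so these values describe the profiles only. As whole profiles, bAPC 4 (rho 0.969) and bAPC 1 (0.968) were the brown clusters closest to wAPC 1.

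**Figure D5:**
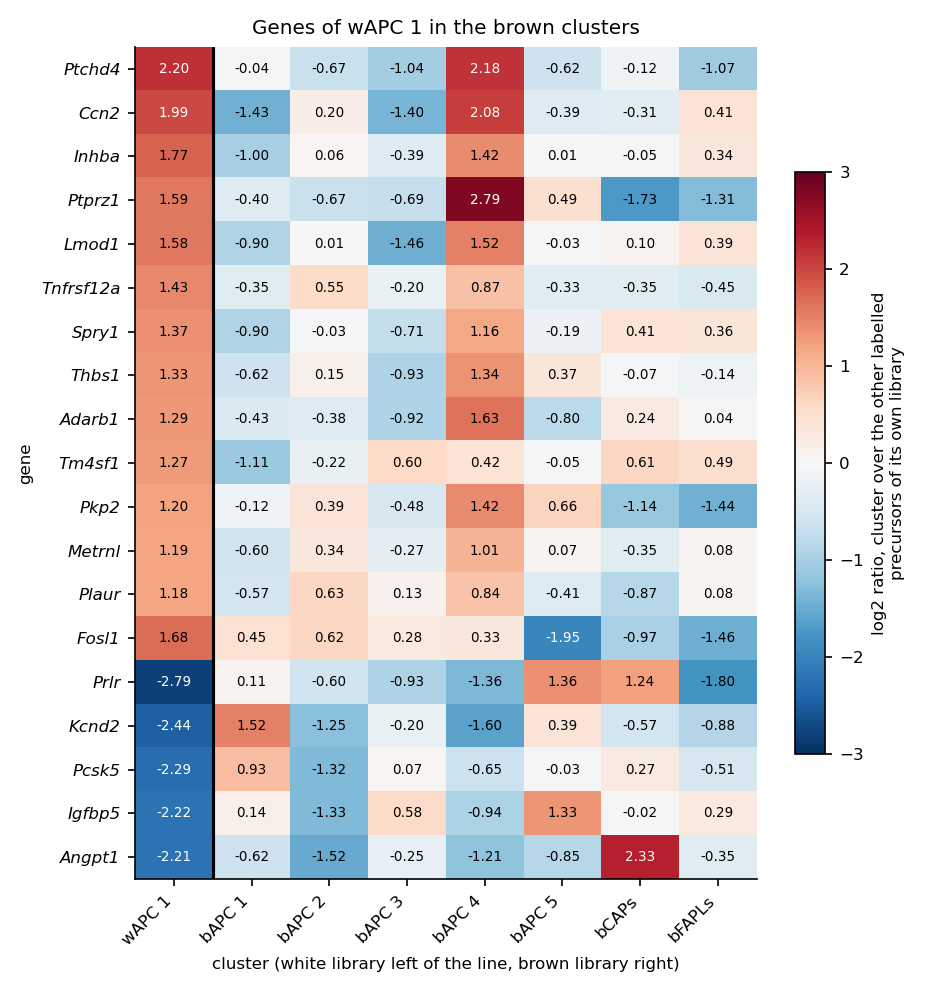
Log2 ratio of a cluster over the other labelled precursors of its own library (colour scale from -3 to 3, values printed) for 13 of the 15 highest genes of wAPC 1, Fosl1 and the 5 lowest genes (vertical axis) in wAPC 1, left of the line, and in the 7 brown clusters, right of it. The bAPC 4 column is above 0 for all 13, from Tm4sf1 at 0.42 to Ptprz1 at 2.79, and below 0 for the 5 lowest. Fosl1 stands at 0.33 there, and Ptprz1 is one of the study's markers of bAPC 4.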

How the data were processed

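One 10x Chromium 3′ library of white and one of brown precursor cultures were used, as UMI counts per gene and cell. The deposited counts were made by the authors with Cell Ranger 7.0.1 on mm10 with default parameters, which in that version count intronic reads. Cells with 3900 to 7700 genes, 6000 to 60000 UMIs and 1.7% to 5.0% mitochondrial UMIs were kept, the limits of the study (4407 white and 6137 brown cells here, the latter slightly under the count the study states), and no doublet caller was run beyond these upper limits. Cluster names are the authors' own labels, used for 1999 cells of each library. Phases were scored with Seurat 5.3.0 in R 4.3.3. Sums, exact Poisson, conditional binomial and Clopper-Pearson intervals, and 15-neighbour votes were computed in Python 3.11.15 with scipy 1.17.1 and scikit-learn 1.9.0, and the scripts were tested on simulated data.

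With 1 library per depot no test was made. Genes needed 10 CPM over all labelled precursors and a 1.5-fold ratio. The text names the markers of the study, the 15 largest ratios each way, genes at least 1.5-fold above every other cluster, up to 5 members past the fold and the most abundant one of each of 31 lists, and the 5 largest each way against wAPC 2 to wAPC 4, with further members given as values. A few genes that fall under this rule are not reported here. Members, lists and rule were chosen with earlier results of these data known. Alternatives were G1 cells, thinning to 10000 UMIs, labels carried over by neighbours (1006 wAPC 1 cells), per-cell means, 50 CPM or no minimum, 2-fold, centring, equal weights, left-out clusters and, added after seeing the data, cells of either sex. Of 38 repeated symbols the first entry kept the name. Depth per cell limits single-cell shares, and intervals cover counting error only.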

Additional observations from a re-analysis of the deposited data

How the results depend on the processing

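The counts of 138 higher and 373 lower genes against the other white precursors became 74 and 119 at a minimum of 50 CPM. They were 2531 and 4016 with no minimum, 23 and 100 at 2-fold, and 216 and 581 in cells with Y-linked UMIs only. With equal cluster weights 89 were higher and 316 lower. Against wAPC 2 to wAPC 4, 224 and 304 became 107 and 107 at 50 CPM, 2719 and 4416 with no minimum, and 52 and 81 at 2-fold, and 516 were lower in cells with Y-linked UMIs. The no-minimum counts hold genes of a few UMIs, and the Y-linked set holds 94 wAPC 1 cells. G1 cells, thinning, carried-over labels, per-cell means, centring, left-out clusters and cells with Xist UMIs moved these counts by less than 1.5 times.

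Equal weights, which raise the 15 differentiating wFAPLs, turned the direction of Myl9 (-0.39), Fabp5 (-0.049), Ptprz1 (-0.16), Creb5 (-0.26), Cnn1 (-0.14), Tagln (-0.045), Col8a1 (-1.60), Crim1 (-0.88) and Acta2 (-0.40). Myh11 was 0.23 without that cluster, and in cells with Y-linked UMIs Adm was -0.030 and Col8a1 -0.35. Of 116 named genes past the fold, 106 stayed past it in G1 cells, 110 after thinning and 79 with equal weights. No paired analysis was possible because each depot has 1 library and the results come from no test.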
